A study of Homo sapiens with 6 samples.

Results

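The 10 genes described here are TNK2, which encodes the non-receptor tyrosine kinase ACK1, its relative TNK1, and 8 genes of its binding partners, its substrates, its ubiquitin ligases and their family, and p62: CDC42, GRB2, NEDD4, NEDD4L, WWP1, WWOX, SIAH2 and SQSTM1. They were chosen by symbol, each matched 1 row of the 61487 gene IDs in the count table, and all 10 were among the 16591 genes that passed the filter on low counts. Polyadenylated RNA was sequenced from H2170, an established human line of lung squamous cell carcinoma, grown in DMEM with serum and antibiotics. The cells expressed the ACK1 (IDRmut)-GFP fusion (IDRmut), the ACK1 (WT)-GFP fusion (WT) or GFP (Control), with 2 libraries per group, so GFP was common to the 3 groups. The labels used here give neither the residues altered in IDRmut nor the promoter of the constructs, nor whether the cells were clones or pools. The series as titled asks about ACK1 condensates and STAT5 activation. Messenger RNA was measured, so the values say nothing of ACK1 protein or of ubiquitination, and in such bulk samples fewer cells of a type and less RNA per cell cannot be told apart.

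ACK1 sits below receptor tyrosine kinases. It binds the active, GTP-loaded form of the small GTPase CDC42, is linked to receptors such as that for EGF through the adaptor GRB2, and carries a ubiquitin-binding domain at its end. Its amount in cells is limited by ubiquitin ligases: members of the NEDD4 family recognise a proline-tyrosine motif in ACK1 through their WW domains, and the RING ligase SIAH2 also marks it. SQSTM1, known as p62, collects ubiquitinated proteins for autophagy and associates with ACK1, and WWOX, a WW domain tumour suppressor, is a substrate that ACK1 phosphorylates.

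Promoter sequence from RefSeq (GRCh38.p14) was held for 9 of the 10 genes, in 23 windows of 250 bases ending at an annotated start. Letters of 5 motifs were searched on both strands, and matches of different motifs may overlap. The antioxidant response element core TGACNNNGC was present in 10.9% of all 35116 windows and in 4 of the 23, from TNK2, NEDD4L and WWOX. Genes differ in their number of windows, so counts of windows and not of genes compare with these shares. The STAT element TTCNNNGAA was present in 6.57% of all windows and, among the genes described, in 1 window of NEDD4L, where it occurred at 2 places. The interferon-stimulated response element was present in 3.02% of all windows and in none of the 23. The AP-1 site TGANTCA (6.57% of all windows) was found in 4 of the 23, from TNK2, NEDD4 and NEDD4L, those of NEDD4 overlapping each other. The GC box GGGCGG (42.6%) was found in 12 of the 23, with at least 1 window of 8 genes, NEDD4L being the exception. A match describes letters and not a bound site, and the counts do not tell which start was used.

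Windows of SQSTM1 (chr5:179820655-179820904, plus strand, the most downstream of its 3), NEDD4L (chr18:58046976-58047225, plus strand, the one of its 5 with the STAT letters) and WWOX (chr16:78099404-78099653, plus strand, its only one) are shown 5′ to 3′, because SQSTM1 rose and NEDD4L and WWOX fell in both ACK1 arms. Capitals mark matches to any of the 5 motifs on either strand, which are GC boxes in SQSTM1, STAT elements in NEDD4L, and a GC box and an antioxidant response element core in WWOX.
SQSTM1: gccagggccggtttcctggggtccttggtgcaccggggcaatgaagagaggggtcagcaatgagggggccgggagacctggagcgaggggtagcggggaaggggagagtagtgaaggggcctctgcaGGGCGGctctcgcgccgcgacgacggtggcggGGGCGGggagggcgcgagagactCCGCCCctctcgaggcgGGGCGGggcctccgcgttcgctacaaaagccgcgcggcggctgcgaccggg
NEDD4L: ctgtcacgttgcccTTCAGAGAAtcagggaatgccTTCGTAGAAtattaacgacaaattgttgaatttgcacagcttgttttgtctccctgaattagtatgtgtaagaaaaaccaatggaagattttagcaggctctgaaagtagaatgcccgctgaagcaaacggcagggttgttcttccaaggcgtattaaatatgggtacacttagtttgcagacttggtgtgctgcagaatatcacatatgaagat
WWOX: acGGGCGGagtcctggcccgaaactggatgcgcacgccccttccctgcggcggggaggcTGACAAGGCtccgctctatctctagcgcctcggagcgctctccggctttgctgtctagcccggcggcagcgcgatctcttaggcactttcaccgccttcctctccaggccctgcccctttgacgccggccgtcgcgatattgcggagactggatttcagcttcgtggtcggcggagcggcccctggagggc

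Library totals ranged from 20346572 to 21922477 counts in IDRmut, 20033289 to 33540998 in WT and 19128111 to 20154935 in Control. The chi-square per gene between replicates, near 1 for counting error alone, was 3.73 in IDRmut, 1.55 in WT and 1.70 in Control, and each library was counted as 1 sample. Of 8 squamous or basal markers, 7 had at least 10 counts in every library, with PKP1 below 1 CPM, and the summed level of the list lay between 1547 and 1662 CPM in IDRmut, 1148 and 1175 in WT, and 2084 and 2092 in Control. KRT14 carried most of that sum, at 993 and 888 CPM in IDRmut, 636 and 608 in WT, and 1414 and 1434 in Control. SOX2 was also lower in both arms, at 298 and 290 CPM in IDRmut, 233 and 236 in WT, and 351 and 327 in Control. So was SERPINB5, at 179 and 186 CPM in IDRmut, 200 in each WT library, and 237 and 236 in Control. Other members of the list ran the other way in IDRmut, among them KRT6A at 100.1 and 93.7 CPM in IDRmut, 44.1 and 46.3 in WT, and 28.6 and 28.7 in Control. KRT5, TP63 and DSG3 were also higher in both IDRmut libraries than in both Control libraries. KRT6A, TP63 and DSG3 lay above Control in both WT libraries too. KRT5 lay below it there, at 7.94 and 8.69 CPM in WT against 14.7 and 12.8 in Control. Of 4 general epithelial markers, EPCAM and CDH1 stayed below 0.2 CPM in all 6 libraries, while KRT8 had 76.0 and 68.9 CPM in IDRmut, 28.8 and 27.6 in WT, and 12.7 and 11.3 in Control, and KRT18 was likewise lowest in Control. Their summed level lay between 75.5 and 83.9 CPM in IDRmut, 38.96 and 39.3 in WT, and 13.2 and 14.2 in Control. The leukocyte markers summed to less than 0.3 CPM, with CD3E at 0. Among the fibroblast markers, COL1A2 had 910 and 849 CPM in IDRmut, 666 and 674 in WT, and 820 and 839 in Control. PDGFRA had 57.1 and 58.3 CPM in IDRmut, 28.1 and 31.0 in WT, and 56.5 and 59.1 in Control, while DCN and LUM stayed below 0.3 CPM. The part of these lists in the results was not tested.

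Counted over the 10 genes, 5 passed edgeR's quasi-likelihood test at an adjusted p under 0.05 in IDRmut over Control, against 31.6% of all genes tested. They were TNK2, TNK1 and SQSTM1, which were higher, and NEDD4L and WWOX, which were lower. In WT over Control 6 passed, against 35.0% of all genes, with TNK2, NEDD4 and SQSTM1 higher and NEDD4L, WWOX and SIAH2 lower. Between IDRmut and WT 5 passed, against 26.5% of all genes, with TNK1 and SIAH2 higher in IDRmut and TNK2, NEDD4 and SQSTM1 lower. By direction, the shares of all genes tested were 15.6% higher and 15.9% lower in IDRmut over Control, 17.4% and 17.6% in WT over Control, and 12.3% and 14.2% in IDRmut over WT. In each comparison 1 of the passing genes is the overexpressed TNK2 itself, and shares of so few genes this near to the background say little about the set. DESeq2 called 4, 4 and 3 of the 10 in the 3 comparisons. NEDD4L, WWOX and SQSTM1 passed in both arms against Control with the same sign, and the 2 comparisons share the Control libraries.

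**Figure D1:**
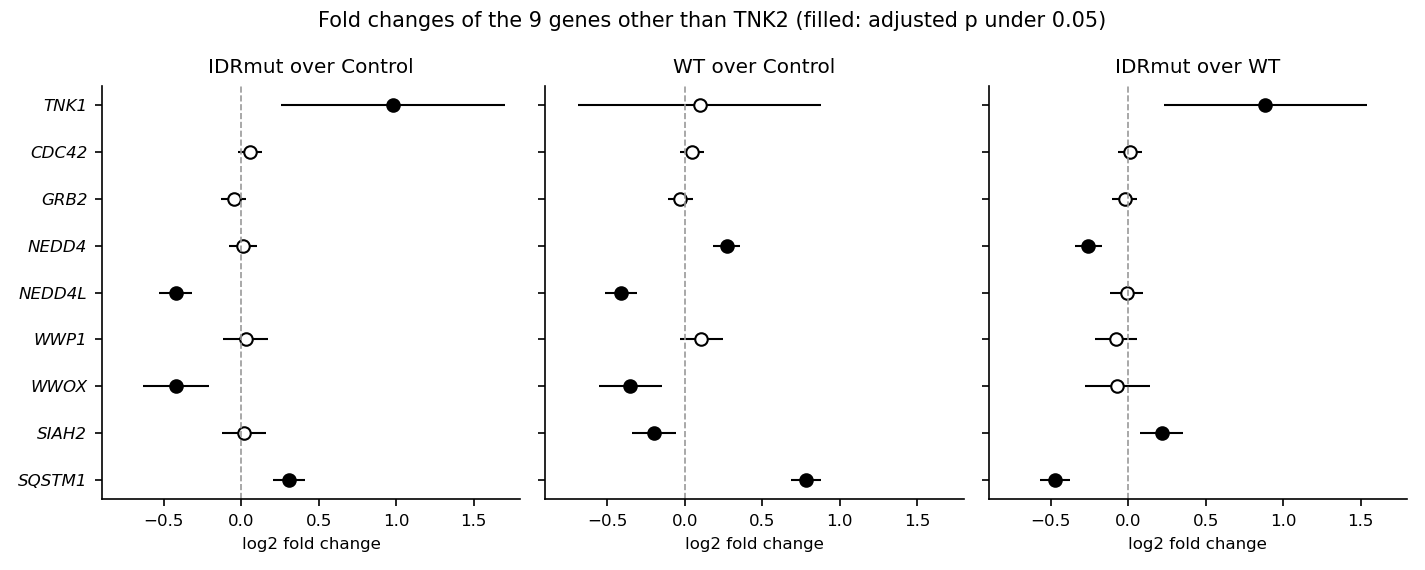
Log2 fold change (horizontal axes) of the 9 genes other than TNK2 in IDRmut over Control, WT over Control and IDRmut over WT; bars are approximate 95% intervals and filled points passed an adjusted p of 0.05. SQSTM1 is at 0.31, 0.78 and -0.48, and the intervals of CDC42, GRB2 and WWP1 cross 0 in each panel.

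TNK2 and TNK1 make up the ACK family of kinases. TNK2 (chromosome 3, 195863364 to 195911945, minus strand, GRCh38) had 1762 and 1455 CPM in IDRmut, 3514 and 3613 CPM in WT, and 41.1 and 43.1 CPM in Control, where CPM is the count scaled to library size after TMM normalisation. The 3 groups did not overlap, and the replicates differed most in IDRmut (SD 217 CPM, against 69.8 in WT and 1.41 in Control). The log2 fold changes were 5.25 ± 0.08 in IDRmut over Control, 6.403 ± 0.08 in WT over Control and -1.15 ± 0.06 in IDRmut over WT (SE; edgeR quasi-likelihood test, adjusted p = 1.8e-17, 1.1e-18 and 2.8e-10). These values check only that the ACK1 groups differ from Control as labelled. The counts could not tell construct from endogenous reads, nor the WT from the IDRmut sequence. The IDRmut level exceeded Control by 1566 CPM and the WT level by 3522 CPM, so that IDRmut cells carried 44.5% of the excess seen in WT cells. All differences between IDRmut and WT given here were therefore measured at unequal ACK1 transcript levels, and effects of the mutation and of the lower level cannot be told apart. The antisense gene TNK2-AS1, which shares 2.45% of the TNK2 exon bases, had 10 and 9 counts in IDRmut, 20 and 17 in WT, and 11 and 4 in Control.

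TNK1 (chromosome 17, 7380534 to 7389774, plus strand), a related non-receptor tyrosine kinase, was near the limit of detection and was higher in IDRmut. It had 24 and 22 counts in IDRmut, 12 and 20 in WT, and 10 and 11 in Control, which are 1.09 ± 0.13, 0.586 ± 0.0020 and 0.549 ± 0.060 CPM (SD, n = 2). The IDRmut libraries lay above all 4 others, and those of WT and Control overlapped. The log2 fold change over Control was 0.98 ± 0.34 (SE; edgeR quasi-likelihood test, adjusted p = 0.038) and over WT 0.88 ± 0.31 (adjusted p = 0.044). Neither call survived leaving out any single library, with adjusted p between 0.056 and 0.20 against Control and between 0.067 and 0.22 against WT, and DESeq2 gave an adjusted p of 0.28 against Control and no adjusted p against WT. With the replicate number as a block, adjusted p was 0.053 and 0.065. The call against WT was also lost without a filter on low counts (0.059) and in a fit of only the 2 groups (0.052). PLSCR3, which shares 1.24% of the TNK1 exon bases on the opposite strand, had 6 to 18 counts per library. In WT over Control the log2 fold change was 0.10 ± 0.37 (edgeR adjusted p = 0.88), with a 95% interval of the fold from 0.619 to 1.84, so folds within that range are not excluded.

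**Figure D2:**
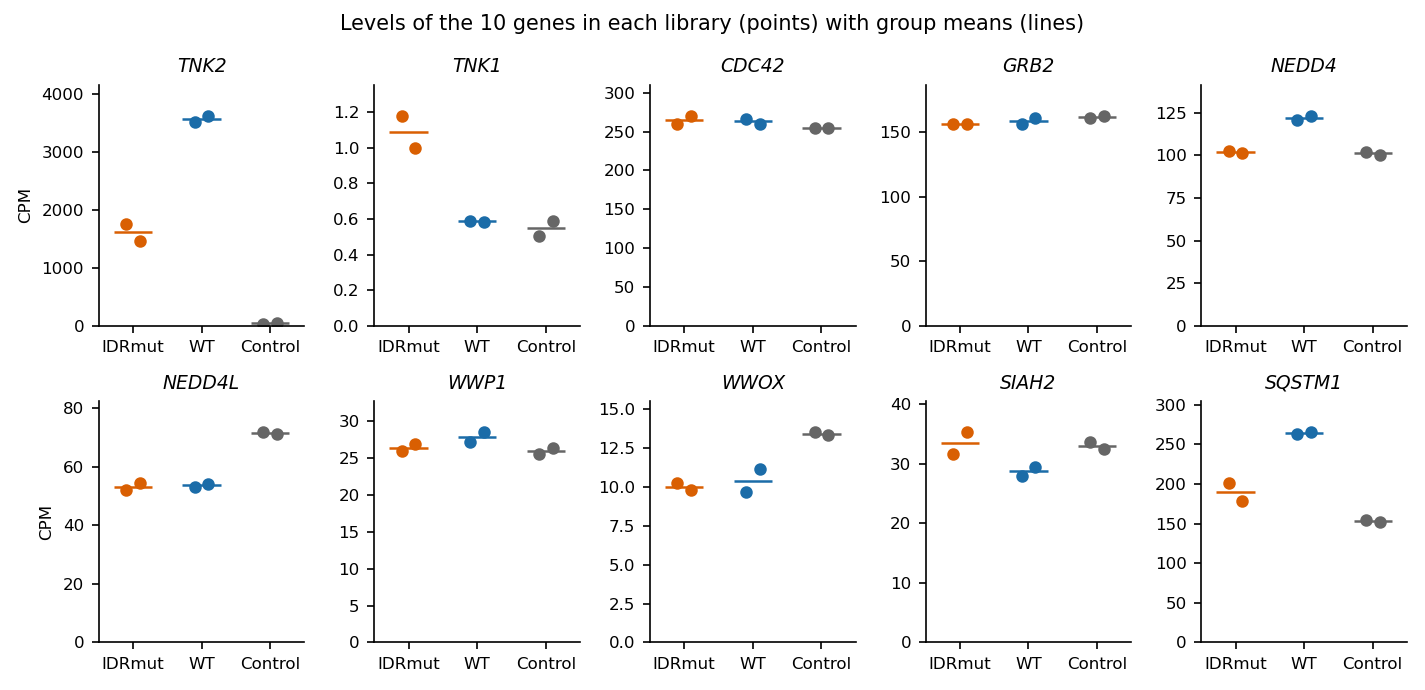
Level of each of the 10 genes in CPM (vertical axes, linear and starting at 0) in IDRmut, WT and Control; points are libraries and lines are means of 2. NEDD4L and WWOX lie below Control in all 4 ACK1 libraries, SQSTM1 lies above it in all 4, and NEDD4 stands apart in WT at 121 and 123 CPM.

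Levels compared between genes are given per kilobase of annotated exon. In Control the order ran from CDC42 at 70.8 ± 0.0062 CPM per kilobase through GRB2 (34.3), SQSTM1 (20.04), SIAH2 (12.6), NEDD4 (11.1), NEDD4L (4.09), WWP1 (4.09), TNK2 (3.51) and WWOX (2.75) to TNK1 at 0.142. NEDD4L and WWP1 were the only neighbours in that order whose Control libraries overlapped. TNK2 moved to the head of the order in both ACK1 arms, at 134 ± 18.0 CPM per kilobase in IDRmut and 297 ± 5.81 in WT (SD, n = 2), figured over the exons of the endogenous gene because the labels do not give the length of the construct. SQSTM1 passed GRB2 in WT, at 34.5 against 33.6 CPM per kilobase.

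CDC42 and GRB2, the binding partners that tie ACK1 to GTPase and receptor signalling, passed the test in none of the 3 comparisons. CDC42 (chromosome 1, 22052627 to 22092946, plus strand), a switch for actin and polarity, had 260 and 270 CPM in IDRmut, 267 and 260 CPM in WT, and 255 CPM in each Control library. Both arms lay above both Control libraries, but the fitted folds over Control were 1.04 in IDRmut (95% interval 0.985 to 1.10; edgeR adjusted p = 0.27) and 1.03 in WT (0.979 to 1.09; adjusted p = 0.34). Of the CDC42 exon bases, 59.4% are shared with other genes in GENCODE release 29, most of them with AL031281.2 (57.1%), which had no row in the count table. Reads could also belong to processed pseudogenes, of which CDC42P6 had 39 to 92 counts per library. GRB2 (chromosome 17, 75318076 to 75405709, minus strand), which carries receptor signals to SOS and RAS, had 157 CPM in each IDRmut library, 156 and 161 CPM in WT, and 161 and 163 CPM in Control. Its fold over Control was 0.966 in IDRmut (95% interval 0.913 to 1.02; edgeR adjusted p = 0.37) and 0.981 in WT (0.927 to 1.04; adjusted p = 0.61). Under a GC and length correction GRB2 passed as lower in IDRmut than in Control, with a log2 fold change of -0.08 (adjusted p = 0.049). Between IDRmut and WT the folds were 1.01 for CDC42 (0.954 to 1.06) and 0.985 for GRB2 (0.932 to 1.04).

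The 21 tested CDC42 effectors rose in 3 and fell in 6 cases in IDRmut, rose in 10 and fell in 6 in WT, and were higher in 1 and lower in 10 in IDRmut than in WT, with median log2 fold changes of -0.04, 0.12 and -0.17 beside 0.0040, 0.0017 and -0.00068 over all genes tested. Over all genes, 15.6% rose and 15.9% fell in IDRmut, 17.4% rose and 17.6% fell in WT, and 12.3% were higher and 14.2% lower in IDRmut than in WT, shares against which the counts of this and the other lists are to be read. CDC42EP3, a septin organiser, had 0.29 ± 0.04, 0.62 ± 0.04 and -0.33 ± 0.04 on the log2 scale in the 3 comparisons, in the order IDRmut over Control, WT over Control and IDRmut over WT. CDC42EP1 rose in WT (0.64) and was lower in IDRmut than in WT (-0.52). The scaffold IQGAP3 fell in IDRmut (-0.30), rose in WT (0.12) and was lower in IDRmut than in WT (-0.42). IQGAP1 fell in both arms (-0.23 in IDRmut, -0.10 in WT) and was lower in IDRmut than in WT (-0.12). The kinase gene PAK6 also fell in both (-0.67 in IDRmut, -0.78 in WT), and its difference between IDRmut and WT did not pass (0.11 ± 0.12). Among 20 tested exchange factors, GTPase activators and dissociation inhibitors, 2 rose and 5 fell in IDRmut, 5 rose and 3 fell in WT, and 1 was higher and 9 lower in IDRmut than in WT, where 12.3% and 14.2% of all genes were (medians -0.08, 0.05 and -0.16). PLEKHG1 rose in both arms (0.39 in IDRmut, 0.54 in WT) and was lower in IDRmut than in WT (-0.15), and DNMBP, an exchange factor specific for CDC42, fell in both (-0.28 and -0.24). DOCK11, another CDC42 exchange factor, fell in both arms (-0.53 in IDRmut, -0.22 in WT) and was lower in IDRmut than in WT (-0.31). FGD6 and ARHGAP31 rose in WT (0.48 and 0.30) and were lower in IDRmut than in WT (-0.68 and -0.48). ARHGDIA fell in IDRmut (-0.28) and was lower there than in WT (-0.27).

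Of 19 tested genes around GRB2, 4 rose and 7 fell in IDRmut, 3 rose and 3 fell in WT, and 3 were higher and 6 lower in IDRmut than in WT, with medians of -0.05, -0.01 and -0.08. Beside these counts, the shares of all genes were 15.6% and 15.9%, 17.4% and 17.6%, and 12.3% and 14.2%. GAB2, a docking protein that GRB2 recruits, rose in both arms (0.33 ± 0.05 in IDRmut, 0.28 ± 0.05 in WT). SH3KBP1, which brings the ligase CBL to receptors, fell in IDRmut (-0.33 ± 0.05) and rose in WT (0.26 ± 0.04), and the difference between IDRmut and WT was -0.59 ± 0.04 (edgeR adjusted p = 4.2e-08). GRB10 fell in IDRmut (-0.33) and stood lower there than in WT (-0.43), and SHC4 fell in both arms (-0.33 in IDRmut, -0.77 in WT) and was higher in IDRmut than in WT (0.44).

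Among 27 tested genes listed as substrates or partners of ACK1, a list with 9 of the 10 genes described here, 5 rose and 8 fell in IDRmut, 9 rose and 7 fell in WT, and 4 were higher and 12 lower in IDRmut than in WT (medians -0.02, 0.07 and -0.08). These counts include the overexpressed TNK2, and the shares of all genes were 15.6% and 15.9%, 17.4% and 17.6%, and 12.3% and 14.2% in the same order. AXL, a receptor tyrosine kinase that binds ACK1, fell in IDRmut to 198 CPM and rose in WT to 365 CPM, against 289 CPM in Control, with a log2 difference between IDRmut and WT of -0.88 ± 0.04 (edgeR adjusted p = 7.3e-11). EGFR fell in IDRmut (-0.13), rose in WT (0.23) and was lower in IDRmut than in WT (-0.36). The scaffold BCAR1 rose in WT (0.38) and was lower in IDRmut than in WT (-0.55). The chaperone HSP90AA1 rose in both arms (0.20 in IDRmut, 0.33 in WT) and was lower in IDRmut than in WT (-0.13). AKT1, a kinase that ACK1 phosphorylates, fell in IDRmut (-0.27) and was lower there than in WT (-0.21).

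Of the 3 NEDD4 family ligases, NEDD4L fell in both ACK1 arms, NEDD4 rose in WT, and WWP1 passed in neither. NEDD4L (chromosome 18, 58044367 to 58401540, plus strand), known for removing the epithelial sodium channel from the cell surface, had 51.9 and 54.6 CPM in IDRmut, 53.2 and 54.1 CPM in WT, and 71.7 and 71.2 CPM in Control. The 4 ACK1 libraries were all lower than Control, and those of IDRmut and WT overlapped. Its log2 fold changes over Control were -0.42 ± 0.05 in IDRmut (edgeR adjusted p = 5e-06) and -0.41 ± 0.05 in WT (adjusted p = 3.6e-06), a fold of 0.746 and 0.751. Between IDRmut and WT the fold was 0.993, with a 95% interval of 0.923 to 1.07 (adjusted p = 0.90).

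NEDD4 (chromosome 15, 55826922 to 55993746, minus strand), the founding member of the family, had 102 and 101 CPM in IDRmut, 121 and 123 CPM in WT, and 102 and 100 CPM in Control. The WT libraries stood above the other 4, and IDRmut overlapped Control. The rise in WT over Control was 0.27 ± 0.04 on the log2 scale (edgeR adjusted p = 6.3e-05), and IDRmut was lower than WT by a log2 fold change of -0.26 ± 0.04 (adjusted p = 0.00014). The fold of IDRmut over Control was 1.01 (95% interval 0.947 to 1.07; adjusted p = 0.87).

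WWP1 (chromosome 8, 86342738 to 86478420, plus strand), a ligase with targets among epithelial transcription factors, had 25.9 and 26.9 CPM in IDRmut, 27.1 and 28.5 CPM in WT, and 25.5 and 26.3 CPM in Control. WT lay just above Control without overlap, but the fold of 1.08 (95% interval 0.978 to 1.19) did not pass (edgeR adjusted p = 0.23). The fold of IDRmut was 1.02 over Control (0.923 to 1.13) and 0.947 over WT (0.862 to 1.04). RMDN1, on the opposite strand, shares 3.90% of the WWP1 exon bases and had 991 to 1646 counts per library.

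NEDD4 stood higher relative to NEDD4L in the libraries of both arms than in Control. The ratio of their raw counts, which needs no scaling between libraries, was 1.97 and 1.86 in IDRmut, 2.27 and 2.28 in WT, and 1.42 and 1.41 in Control, so the 3 groups did not overlap. The ratio of NEDD4 to WWP1 was 3.95 and 3.77 in IDRmut, 4.45 and 4.32 in WT, and 4.00 and 3.81 in Control. It was higher in the WT libraries than in the other 4, and IDRmut overlapped Control.

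**Figure D3:**
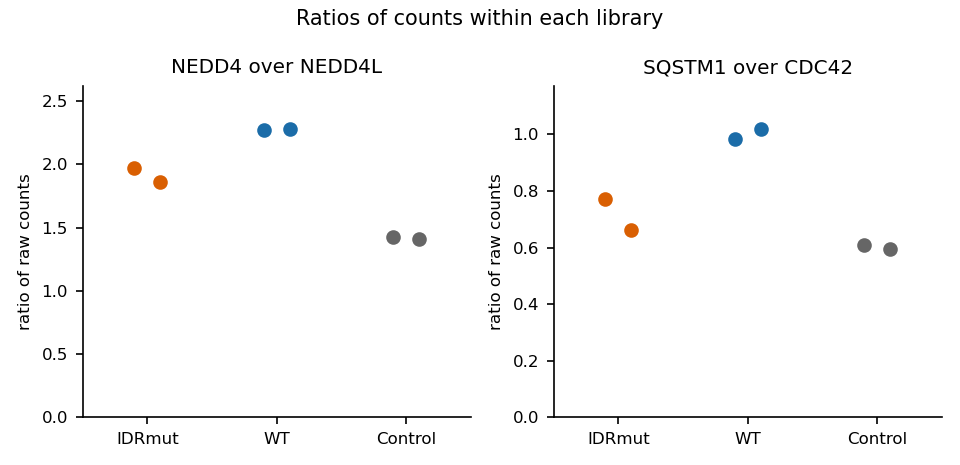
Ratio of raw counts of NEDD4 to NEDD4L (left) and of SQSTM1 to CDC42 (right) in IDRmut, WT and Control; each point is 1 library, and the vertical axes start at 0. The NEDD4 to NEDD4L ratio is 1.86 to 1.97 in IDRmut, 2.27 to 2.28 in WT and 1.41 to 1.42 in Control.

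Of the 9 HECT ligases, 0 rose and 1 fell in IDRmut over Control by edgeR's quasi-likelihood test, the fall being that of NEDD4L, while 4 rose and 1 fell in WT over Control, and 0 were higher and 3 lower in IDRmut than in WT. Of all genes, 15.6% rose and 15.9% fell in IDRmut, and 17.4% rose and 17.6% fell in WT. Between IDRmut and WT, 12.3% were higher and 14.2% lower in IDRmut. The medians were -0.0057, 0.25 and -0.16 on the log2 scale. SMURF2, which limits TGF-beta receptors, had 80.3 and 82.9 CPM in IDRmut, 120 and 121 CPM in WT, and 86.3 and 90.4 CPM in Control, with log2 fold changes of 0.45 ± 0.04 in WT over Control and -0.57 ± 0.04 in IDRmut over WT (adjusted p = 3.3e-07 and 4.4e-08). WWP2 rose in WT (0.25 ± 0.05) and was lower in IDRmut than in WT (-0.16 ± 0.05). HECW1 was the other ligase called higher in WT, with no library above 1 CPM. For ITCH the 2 folds over Control were -0.01 ± 0.04 in IDRmut and 0.02 ± 0.04 in WT.

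Of 10 tested adaptors that bring NEDD4 ligases to their targets, 2 rose and 2 fell in IDRmut, 1 rose and 3 fell in WT, and 3 were higher and 1 lower in IDRmut than in WT (medians 0.01, -0.0020 and 0.01). The shares of all genes were 15.6% and 15.9%, 17.4% and 17.6%, and 12.3% and 14.2% in the same order. ARRDC3, an arrestin-like adaptor, had 144 and 151 CPM in IDRmut, 98.9 and 92.1 CPM in WT, and 123 and 116 CPM in Control. It thus rose in IDRmut (0.30 ± 0.05) and fell in WT (-0.33 ± 0.05), and IDRmut exceeded WT by 0.63 ± 0.05 (edgeR adjusted p = 3e-08). ARRDC4 fell in WT (-0.72 ± 0.15) and was higher in IDRmut than in WT (1.00 ± 0.14). PMEPA1, which binds NEDD4 and is itself induced by TGF-beta, fell in IDRmut (-0.15) and in WT (-0.68), and was higher in IDRmut than in WT (0.53). ARRB1, beta-arrestin 1, rose to 6.43 CPM in IDRmut and 6.44 CPM in WT, against 3.01 CPM in Control.

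**Figure D4:**
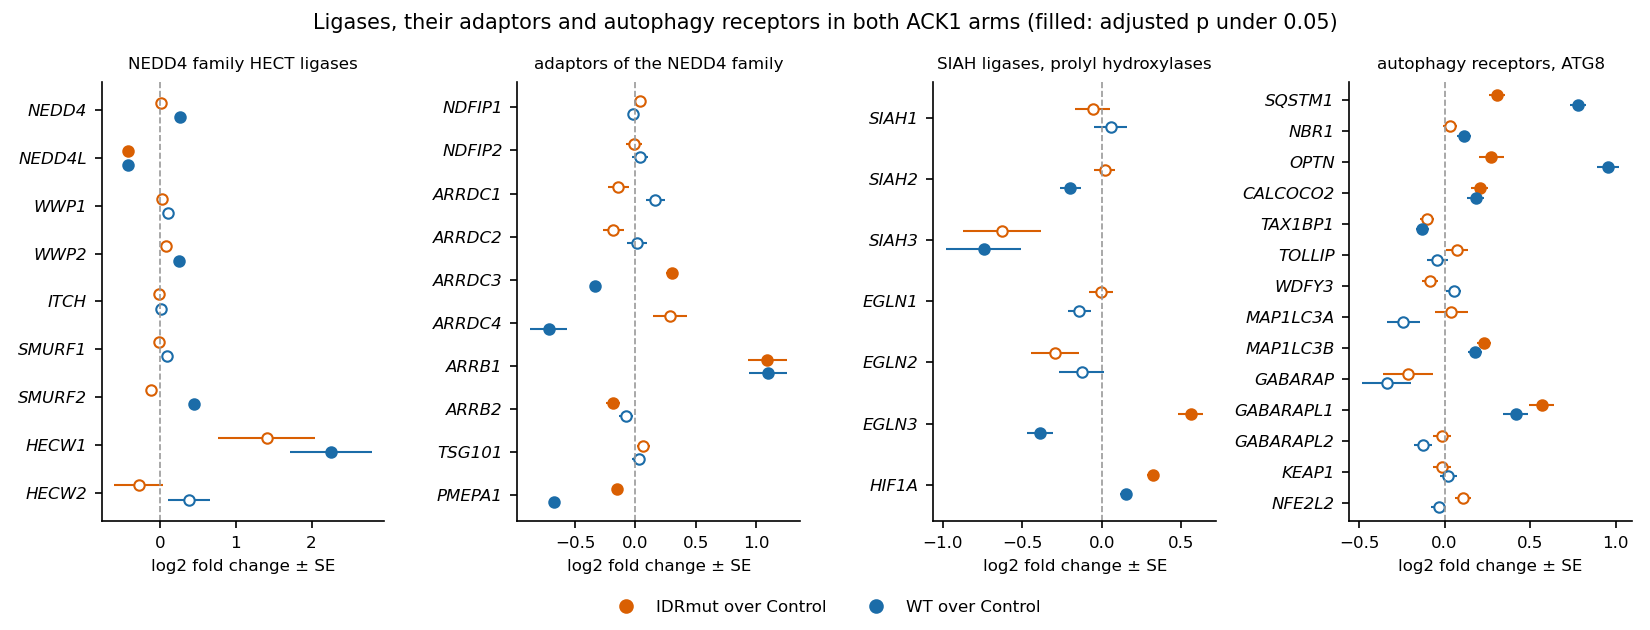
Log2 fold change over Control with its SE (horizontal axes, which differ between panels) for IDRmut and WT in the NEDD4 family, its adaptors, the SIAH and prolyl hydroxylase list and the autophagy list, which includes KEAP1 and NFE2L2; filled points passed an adjusted p of 0.05. NEDD4L lies left of 0 in both arms at about the same place, while SMURF2, ARRDC3, PMEPA1 and EGLN3 separate the arms.

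WWOX, the WW domain oxidoreductase, fell in both ACK1 arms. The gene spans a common fragile site on chromosome 16 (78099413 to 79212667, plus strand) and had no exon overlap with other genes in GENCODE release 29. It had 10.3 and 9.78 CPM in IDRmut, 9.65 and 11.1 CPM in WT, and 13.5 and 13.3 CPM in Control, from 197 to 380 counts per library. All 4 ACK1 libraries were below Control, and IDRmut lay within the range of WT. The log2 fold change over Control was -0.42 ± 0.10 in IDRmut (edgeR adjusted p = 0.0038) and -0.35 ± 0.10 in WT (adjusted p = 0.0082). The call in WT was lost without Control replicate 1 (log2 fold change -0.35, adjusted p = 0.059), without ACK1 WT replicate 1 (-0.27, adjusted p = 0.081) and with DESeq2 (-0.36, adjusted p = 0.082). The fold of IDRmut over WT was 0.953, with a 95% interval of 0.824 to 1.10. In counts, WWOX over GRB2 was 0.0656 and 0.0625 in IDRmut, 0.0618 and 0.0690 in WT, and 0.0837 and 0.0820 in Control.

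Of 17 tested WW domain genes other than the ligases, WWOX among them, 2 rose and 6 fell in IDRmut, 3 rose and 4 fell in WT, and 3 were higher and 5 lower in IDRmut than in WT, with medians of -0.11, 0.01 and -0.06. Among all genes the shares were 15.6% and 15.9%, 17.4% and 17.6%, and 12.3% and 14.2%. WWC1, the Hippo pathway scaffold known as KIBRA, rose in both arms (0.89 ± 0.06 in IDRmut, 0.79 ± 0.06 in WT), and its relative WWC3 fell in both (-0.59 and -0.76). MAGI1, a junctional scaffold, fell in both arms (-0.43 in IDRmut, -0.21 in WT) and was lower in IDRmut than in WT (-0.22). WWTR1, the coactivator TAZ, fell in WT (-0.45) and was higher in IDRmut than in WT (0.44). BAG3, a co-chaperone of selective autophagy, rose in WT (0.24) and was lower in IDRmut than in WT (-0.35). The scaffold MAGI3 fell in IDRmut (-0.15), rose in WT (0.22) and was lower in IDRmut than in WT (-0.37).

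SIAH2 (chromosome 3, 150741127 to 150763477, minus strand), a RING ligase that also degrades prolyl hydroxylases in hypoxia, was lower in WT than in the other groups by a small amount. It had 31.7 and 35.2 CPM in IDRmut, 27.97 and 29.5 CPM in WT, and 33.6 and 32.5 CPM in Control. The WT libraries were the lowest, and IDRmut spanned Control. The log2 fold change of WT over Control was -0.20 ± 0.07 (edgeR adjusted p = 0.029) and of IDRmut over WT 0.22 ± 0.07 (adjusted p = 0.022). The call in WT over Control was lost on leaving out either Control or either WT library, with adjusted p up to 0.17, with upper-quartile scaling (0.067), without a filter on low counts (0.051) and with DESeq2 (0.15). The difference between IDRmut and WT was lost without ACK1 WT replicate 1 (adjusted p = 0.15), ACK1 WT replicate 2 (0.056) or ACK1 IDRmut replicate 2 (0.19), and with DESeq2 (0.11). In IDRmut over Control the fold was 1.01 (95% interval 0.917 to 1.12).

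In the list of SIAH ligases and prolyl hydroxylases, 2 of 7 genes rose and 0 fell in IDRmut by edgeR's quasi-likelihood test, 1 rose and 3 fell in WT, and 3 were higher and 0 lower in IDRmut than in WT (medians -0.0037, -0.14 and 0.14). For all genes the shares were 15.6% and 15.9%, 17.4% and 17.6%, and 12.3% and 14.2%. EGLN3, the prolyl hydroxylase PHD3 that SIAH2 can degrade, had 31.7 and 27.6 CPM in IDRmut, 15.5 and 15.2 CPM in WT, and 19.99 and 20.2 CPM in Control. It rose in IDRmut (0.56 ± 0.08), fell in WT (-0.39 ± 0.08) and differed between IDRmut and WT by 0.95 ± 0.08 (edgeR adjusted p = 9.5e-08). HIF1A, the hypoxia factor that the hydroxylases mark, rose in both arms (0.32 in IDRmut, 0.15 in WT) and was higher in IDRmut than in WT (0.17). SIAH2-AS1, which shares 4.05% of the SIAH2 exon bases on the opposite strand, had 0 to 5 counts per library.

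SQSTM1 (chromosome 5, 179806398 to 179838078, plus strand) rose in both ACK1 arms and more in WT, the largest change among the 10 genes after that of TNK2 in WT over Control. It had 201 and 179 CPM in IDRmut, 263 and 265 CPM in WT, and 155 and 152 CPM in Control. The 3 groups did not overlap, with WT highest and Control lowest. The log2 fold changes were 0.31 ± 0.05 in IDRmut over Control (edgeR adjusted p = 9.6e-05), 0.78 ± 0.05 in WT over Control (adjusted p = 7.8e-10) and -0.48 ± 0.05 in IDRmut over WT (adjusted p = 6.4e-07). In linear terms these are folds of 1.24, 1.72 and 0.719. IDRmut cells showed 33.1% of the WT excess over Control in SQSTM1, beside 44.5% for TNK2. For the other genes called in WT over Control this share of the WT difference was 4.03% (NEDD4), 102% (NEDD4L), 112% (WWOX) and -9.12% (SIAH2). No error was computed for these shares. The ratio of SQSTM1 to CDC42 counts was 0.772 and 0.663 in IDRmut, 0.985 and 1.02 in WT, and 0.608 and 0.597 in Control. Of the SQSTM1 exon bases, 20.7% are shared with MRNIP on the opposite strand, which had 803 and 813 counts in IDRmut, 714 and 1288 in WT, and 646 in each Control library, against 2826 to 9055 for SQSTM1. MGAT4B shares 1.37% and had 2679 to 5844 counts. Counts given for overlapping genes and for CDC42P6 are not scaled to library size. They do not compare between libraries, since ACK1 WT replicate 2 had the largest total (33540998).

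Of 14 tested genes in a list of autophagy receptors, ATG8 proteins and the SQSTM1-linked pair KEAP1 and NFE2L2, with SQSTM1 included, 5 rose and 0 fell in IDRmut by edgeR's quasi-likelihood test, 6 rose and 1 fell in WT, and 2 were higher and 3 lower in IDRmut than in WT, with medians of 0.06, 0.04 and 0.04. In the same order, 15.6% and 15.9%, 17.4% and 17.6%, and 12.3% and 14.2% of all genes did so. OPTN, the receptor optineurin, had 24.0 and 23.9 CPM in IDRmut, 38.9 and 38.0 CPM in WT, and 20.5 and 19.1 CPM in Control, so it rose in IDRmut (0.27 ± 0.07) and in WT (0.95 ± 0.07) and was lower in IDRmut than in WT (-0.68 ± 0.06; adjusted p = 3.7e-07). GABARAPL1 and MAP1LC3B, ATG8 proteins of the autophagosome membrane, rose in IDRmut (0.57 and 0.23) and in WT (0.42 and 0.18), as did the receptor CALCOCO2 (0.21 in IDRmut, 0.18 in WT). The gene that fell in WT was TAX1BP1 (-0.13). NFE2L2, the factor that SQSTM1 can release from KEAP1, was higher in IDRmut than in WT (0.14), and WDFY3 was lower (-0.14).

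The genes whose pattern over the 6 libraries lay nearest to that of TNK2, out of 13979 with a mean of at least 1 CPM, were SULF1, MX1 and IFI44L. Nearness was the root mean square difference, over the 6 libraries, of log2(CPM + 0.5) relative to each gene's own Control mean, and it was 0.63 for SULF1, 1.01 for MX1 and 1.16 for IFI44L. MX1 had 21.5 and 20.6 CPM in IDRmut, 37.6 and 38.6 CPM in WT, and 0.710 and 0.699 CPM in Control. SULF1, MX1 and IFI44L were picked for their nearness to TNK2 over the same 6 libraries. That MX1 shares the order of TNK2, with WT above IDRmut, is therefore not a separate observation. SULF1 had no count in Control, and its IDRmut libraries (18.9 and 21.6 CPM) overlapped its WT libraries (19.3 and 20.1 CPM). Its level relative to Control is thus set in part by the added 0.5 CPM. The same holds for MX1 and for IFI44L (0.304 and 0.269 CPM in Control), so the ranking depends on that choice.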

How the data were processed

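Raw counts per gene were deposited for 6 libraries. Per the submitters' processing notes the authors used HISAT2 2.2.1, SAMtools 1.14 and featureCounts 2.0.1 with GRCh38. The sources used here do not give the gene models, strandedness or multi-mapping rules, so reads of overlapping or antisense genes could not be separated. Names were matched for 61369 of 61487 IDs from a current table and for 105 from GENCODE release 29, which also gave coordinates, exon lengths and overlaps. It may not be the authors' release.

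Genes were kept by filterByExpr (minimum count 10, minimum total 15) and scaled with TMM. All 6 libraries entered 1 fit of group means in edgeR 4.0.16 (R 4.3.3), sharing 1 estimate of the spread, and contrasts were tested by quasi-likelihood with Benjamini-Hochberg adjustment over 16591 genes. The threshold for a call was an adjusted p of 0.05. Standard errors came from the F statistic, and 95% intervals from these with the t distribution. The procedure was tested on simulated counts. DESeq2 1.42.0 was an alternative. No molecular identifiers are described, so counting intervals would cover counting error only. The labels do not say that replicates were separate cultures, so p-values measure the spread between these libraries, which may be technical.

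The 10 genes and all lists were chosen with earlier results of these data known. Named list genes are up to 3 per list and comparison with the smallest adjusted p, called, at a mean of at least 5 CPM and without overlap between groups. Genes outside that rule (HECW1, ITCH, TAX1BP1 and CDC42P6) were named after their values were seen. Results for 1 list and some single genes under the rule are not reported here.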

Additional observations from a re-analysis of the deposited data

How the results depend on the processing

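The 30 fold changes of the 10 genes were recomputed under 14 alternatives, which gave 419 values, DESeq2 giving no adjusted p for TNK1 in IDRmut over WT. Of these, 374 kept their direction and side of the threshold, 31 no longer passed, 1 newly passed (GRB2 in IDRmut over Control under a GC and length correction, -0.08, adjusted p = 0.049) and 13 changed sign. All 31 belonged to TNK1, SIAH2 and WWOX, given with their results. Sign changes concerned fold changes that were not called under either setting: SIAH2 in IDRmut over Control with the GC and length correction (-0.023) and GRB2 in WT over Control with upper-quartile scaling (0.0039), the remainder on leaving out 1 library. Over those fits the ranges were -0.0056 to 0.024 for NEDD4, -0.00027 to 0.052 for WWP1 and -0.064 to 0.090 for SIAH2 in IDRmut over Control, -0.016 to 0.20 for TNK1 in WT over Control, and -0.018 to 0.042 for CDC42, -0.044 to 0.0066 for GRB2, -0.048 to 0.028 for NEDD4L and -0.15 to 0.057 for WWOX in IDRmut over WT. The cause was not tested.

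DESeq2 called 3290, 3649 and 2534 genes in IDRmut over Control, WT over Control and IDRmut over WT, against 5237, 5807 and 4396 by edgeR, and 3 of the 10 genes in the last comparison, against 5. Leaving out 1 library gave 3451 to 5522, 3974 to 7028 and 2590 to 4761 genes, the lowest without Control replicate 1 in the first and without ACK1 WT replicate 2 in the last, and 4, 4 to 6 and 3 to 4 of the 10 genes. A group left with 1 library is then assumed to vary like the others. Same-numbered libraries did not deviate together (correlations of deviations -0.02 to -0.03). Counting error makes up much of the deviations in WT and Control, so this cannot tell whether the numbers pair libraries. With the replicate number as a block, 4836, 5440 and 3966 genes and 4, 6 and 4 of the 10 were called. Low counts limit TNK1, with 10 to 24 per library.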
